A study of Mus musculus with 13 samples.

Results

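The genes examined here encode the fibroblast growth factor (FGF) ligands and receptors and the transforming growth factor-beta (TGF-beta) superfamily ligands, TGF-beta receptors and Smads. They were chosen by gene symbol alone. Of 18562 genes named in any of 6 ChIP-seq peak lists, 43 had such a symbol: 3 TGF-beta ligands, 4 inhibin and activin subunits, 12 BMP and GDF ligands, 3 TGF-beta receptors, 7 Smads, 12 FGF ligands and 2 FGF receptors. The RefSeq gene table held 67 symbols of this kind, and those without an entry in the lists were not analysed here. Roles were also assigned by symbol, so the FGF ligands include the intracellular Fgf12 and its relative Fgf14. Likewise, the BMP and GDF ligands include Bmp1, a metalloprotease that is not itself a ligand.

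The study compared 4T1 cells, a mammary tumor line from BALB/cJ mice, that carried a non-targeting control guide (sg-Ctrl) with 4T1 cells in which Nup210, a gene for a membrane protein of the nuclear pore complex, had been knocked out with CRISPR/Cas9 (KO, line N13). Both lines carried a lentiviral guide under puromycin selection and received Cas9 transiently from an adenovirus. H3K4me3 and H3K27me3 were profiled in both lines, and NUP210 and the nuclear pore complex (NPC, antibody MAb414) in sg-Ctrl cells. Each list came from 1 library, and the KO line was expanded from a single sorted cell, so differences between KO and sg-Ctrl cannot be told apart from differences between clones, cultures or libraries, and no test over replicates was possible. The lists hold no Nup210 RNA or protein level, so the knockout label itself was not checked here.

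The TGF-beta superfamily comprises secreted dimers, among them TGF-betas, activins, bone morphogenetic proteins (BMPs) and growth differentiation factors (GDFs), which bind pairs of serine/threonine kinase receptors. These receptors phosphorylate receptor-regulated Smads, which enter the nucleus with the common partner Smad4. FGFs bind receptor tyrosine kinases and signal largely through the MAP kinase cascade. In mammary tissue both families control epithelial growth and branching, and TGF-beta can drive carcinoma cells toward a mesenchymal, migratory state. H3K4me3 marks the promoters of active or poised genes, whereas H3K27me3 is the mark of Polycomb repressive complex 2 and covers silent developmental genes.

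ChIP reads inside the peaks of a list totalled 5866175 to 26811061. Between the lines, KO depth exceeded sg-Ctrl depth 3.16-fold for H3K27me3 and 1.27-fold for H3K4me3, and reads were divided by library size ("scaled reads"). H3K4me3 was listed in both cell lines for 6 of 7 epithelial markers (Krt5 was the exception) and for 0 of 4 leukocyte, 0 of 3 endothelial and 0 of 3 neuronal markers, and for 1 of 2 hepatocyte markers, Apoa1. Intervals below are 95% intervals for counting error only and do not cover the difference between cultures.

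The promoters of 5 genes are given to set their sequence beside the marks. Each is the RefSeq GRCm38.p6 window from 250 bases before to 50 bases after the gene start, with CG dinucleotides in capitals. Inhba and Inhbb are shown because their H3K4me3 moved in opposite directions in KO cells, Fgf9 because it carried both marks, Fgf5 because it had a CG-rich start with H3K27me3 in the gene body, no H3K4me3 and neither mark on the window itself, and Bmp10 because H3K27me3 covered a CG-poor start. The Inhba window (chr13:16011601-16011900, + strand) starts from a RefSeq start that lies 2623 bp from the start used in the peak list, and it falls inside the Inhba H3K4me3 peak of both cell lines. The other windows are Inhbb (chr1:119422199-119422498, - strand), Fgf9 (chr14:58072436-58072735, + strand), Fgf5 (chr5:98253934-98254233, + strand) and Bmp10 (chr6:87428744-87429043, + strand).
Inhba: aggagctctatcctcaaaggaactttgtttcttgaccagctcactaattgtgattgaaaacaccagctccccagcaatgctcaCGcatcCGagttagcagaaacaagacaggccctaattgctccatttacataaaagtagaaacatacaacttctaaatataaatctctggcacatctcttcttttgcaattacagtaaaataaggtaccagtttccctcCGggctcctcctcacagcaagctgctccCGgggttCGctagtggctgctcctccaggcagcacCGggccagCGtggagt
Inhbb: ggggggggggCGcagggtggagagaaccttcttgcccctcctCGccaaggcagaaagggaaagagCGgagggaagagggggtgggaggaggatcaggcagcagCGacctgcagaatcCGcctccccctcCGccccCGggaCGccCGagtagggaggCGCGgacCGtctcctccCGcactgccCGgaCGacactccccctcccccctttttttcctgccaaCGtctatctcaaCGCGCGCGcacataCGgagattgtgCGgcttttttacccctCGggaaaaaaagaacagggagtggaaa
Fgf9: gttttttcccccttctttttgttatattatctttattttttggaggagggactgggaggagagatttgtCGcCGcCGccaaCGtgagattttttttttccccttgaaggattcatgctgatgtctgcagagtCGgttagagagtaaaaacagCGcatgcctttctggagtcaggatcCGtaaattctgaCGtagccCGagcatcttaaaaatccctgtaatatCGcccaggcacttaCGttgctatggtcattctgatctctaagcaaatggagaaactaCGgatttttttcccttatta
Fgf5: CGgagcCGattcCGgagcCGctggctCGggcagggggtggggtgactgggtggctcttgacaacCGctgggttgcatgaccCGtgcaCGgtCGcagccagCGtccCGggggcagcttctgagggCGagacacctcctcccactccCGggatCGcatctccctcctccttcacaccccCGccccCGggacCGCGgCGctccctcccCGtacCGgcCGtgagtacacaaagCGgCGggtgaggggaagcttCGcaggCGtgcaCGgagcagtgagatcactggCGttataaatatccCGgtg
Bmp10: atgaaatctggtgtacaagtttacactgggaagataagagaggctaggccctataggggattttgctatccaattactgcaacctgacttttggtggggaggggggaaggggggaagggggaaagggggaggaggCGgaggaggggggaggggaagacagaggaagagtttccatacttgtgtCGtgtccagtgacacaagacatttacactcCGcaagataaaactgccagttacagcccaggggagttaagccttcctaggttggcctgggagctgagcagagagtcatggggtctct

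These windows held 7 CG dinucleotides for Inhba, 23 for Inhbb, 12 for Fgf9, 29 for Fgf5 and 3 for Bmp10. The median over all 32851 promoters of the RefSeq table was 7, and 94.6% of them held at least 1 CG. Of the 43 genes, 26 had a RefSeq promoter whose start lay within 50 bp of the start in the lists. The 14 of these with H3K4me3 alone in sg-Ctrl cells had a median of 24 CG dinucleotides, and the 9 with H3K27me3 alone had a median of 6. Over all listed genes the corresponding medians were 22 (7752 genes) and 4 (2724 genes), so the FGF and TGF-beta superfamily genes lay close to the other genes with the same marks. Bmp6 (27 CG dinucleotides) and Fgf5 were the H3K27me3-marked genes with at least 20, and in neither gene did an H3K27me3 peak reach the promoter window.

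By role, the marks fell as follows. All 3 TGF-beta ligands, all 3 TGF-beta receptors, all 7 Smads and both FGF receptors had an H3K4me3 peak within 4 kb of the transcription start site (TSS) in both cell lines, and none had an H3K27me3 peak. In contrast, the 13 genes with H3K27me3 in either line were 6 BMP ligands, 6 FGF ligands and the activin subunit gene Inhbc. Fgf9, an FGF ligand with roles in gonad and lung development, was the 1 gene with both marks, in both lines. In total, H3K4me3 was listed for 29 of the 43 genes in sg-Ctrl cells (67.1% of all genes) and for 28 in KO cells (67% of all genes). H3K27me3 was listed for 12 in sg-Ctrl cells (26.8% of all genes) and for 11 in KO cells (27.6% of all genes). Both marks together were listed for 3.9% of all genes in sg-Ctrl and 3.24% in KO cells. These shares were near the background, so the 43 genes as a set were not unusual in how many carried each mark.

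**Figure D1:**
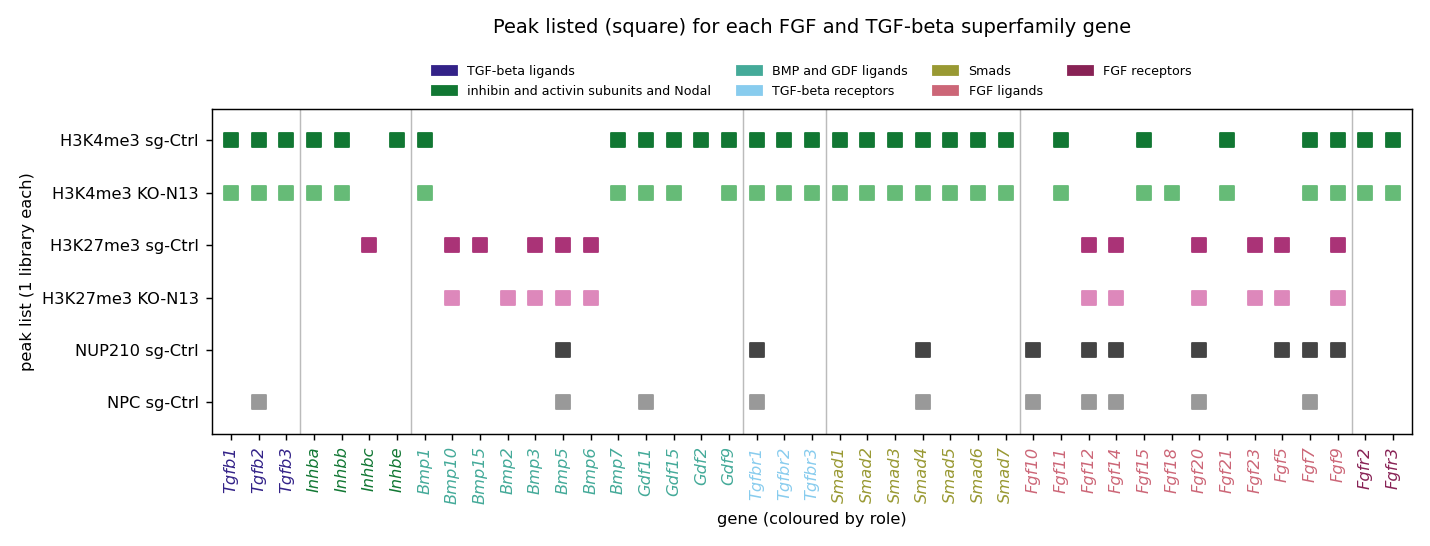
Presence of a peak (square) for each of the 43 genes (x axis, coloured and separated by role) in each of the 6 peak lists (y axis, 1 library each). The TGF-beta ligands, receptors and Smads occupy the H3K4me3 rows, and the squares in the H3K27me3 rows belong to BMP ligands, FGF ligands and Inhbc.

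The question for H3K4me3 was whether the mark at the gene start differed between KO and sg-Ctrl cells. Over all 12197 genes with a TSS peak in both lists, the median of the KO to sg-Ctrl log2 ratio, taken on scaled reads per kb of peak, was -0.50, and 88.7% of genes were below 0. Of the 43 genes, 27 had a TSS peak in both lists. Their median log2 ratio was -0.29, with 18 below 0, and 12 lay below the all-gene median and 15 above it. At least 2-fold lower H3K4me3 in KO cells was found for 4 of the 27 genes (Inhba, Smad4, Fgf7 and Fgf21; 9.66% of all genes), and at least 2-fold higher for 2 (Tgfbr3 and Inhbb; 0.525% of all genes). Relative to the all-gene median, only Inhba of these 4 remained at least 2-fold lower (0.926% of all genes), and Fgf15 joined Tgfbr3 and Inhbb as at least 2-fold higher (2.2% of all genes). The peaks of all 27 genes overlapped between the lists, but none had the same boundaries in both.

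**Figure D2:**
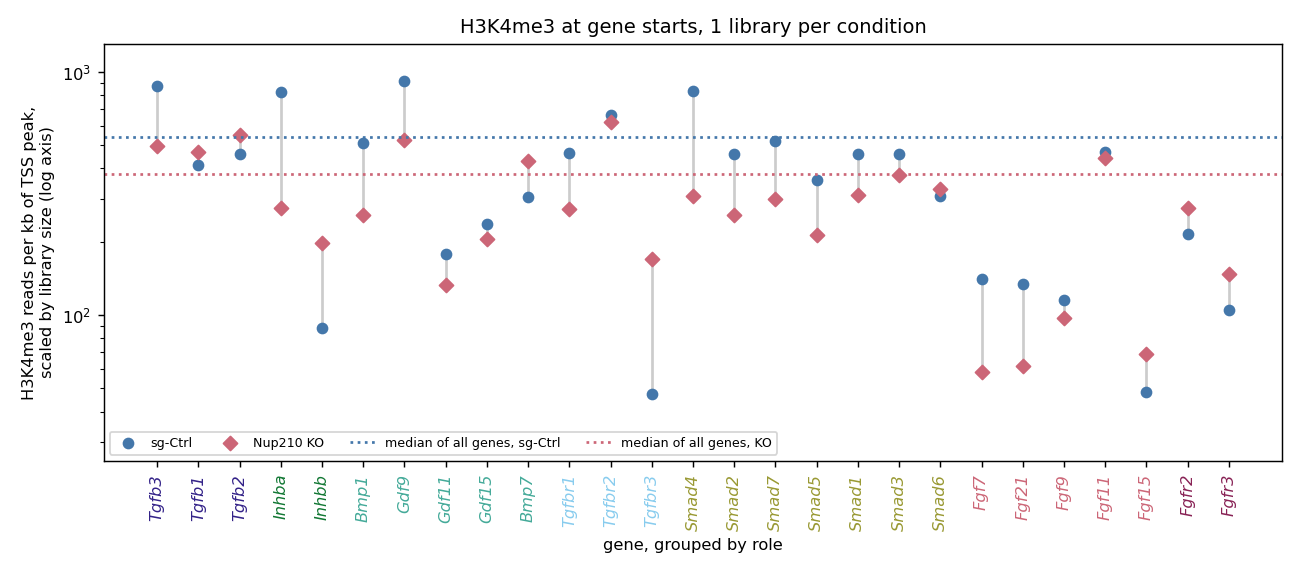
H3K4me3 at the TSS peak of the 27 genes with a peak in both lists, as scaled reads per kb of peak on a log axis (y), for sg-Ctrl (circles) and Nup210 KO (diamonds), 1 library each and therefore without error bars. Dotted lines are the medians of all genes, 537 in sg-Ctrl and 378 in KO cells. Gdf9, Tgfb3, Smad4, Inhba and Tgfbr2 start above the sg-Ctrl line, and Tgfbr3 and Fgf15 start far below it.

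Inhba, which encodes the subunit of activin A, had the largest fall. Its peak (chr13:16010601-16022200 in sg-Ctrl, chr13:16010801-16020600 in KO) contained the start and spanned 11.6 kb in sg-Ctrl and 9.8 kb in KO cells, wider than 98.8% and 96.9% of TSS peaks. Reads numbered 10128 in sg-Ctrl and 3640 in KO cells, with 93 IgG reads in both, which is 823 and 276 scaled reads per kb. The signal was thus high in sg-Ctrl and below the median gene in KO. The log2 ratio was -1.58 (interval -1.63 to -1.52), 2.99-fold lower, and -1.08 relative to the all-gene median. The median on chromosome 13 was -0.49.

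Inhbb, which encodes the subunit of activin B, moved the other way. Its peak was small and narrow, 1.8 kb in sg-Ctrl (chr1:119421201-119423000) and 2.4 kb in KO cells, with 169 and 640 reads. Scaled reads per kb were 88.5 in sg-Ctrl and 198 in KO, both under the median gene. The log2 ratio was 1.16 (interval 0.91 to 1.41), higher than 99.7% of genes. No IgG reads fell in the sg-Ctrl peak and 20 fell in the wider KO peak, and by the deposited fold over IgG (637 in sg-Ctrl, 23.7 in KO) the direction turned. Neither of the remaining subunit genes had H3K4me3 in both lines. Inhbe had a peak of 40 reads in sg-Ctrl alone (19 IgG reads, 1.98-fold over IgG), and Inhbc had none.

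The genes for the 3 TGF-beta ligands, which differ in where they are made but bind shared receptors, did not move together. Tgfb1 had 1759 and 2270 reads in peaks of 4 and 3.6 kb (log2 ratio 0.17, interval 0.08 to 0.27). Tgfb2 had 1661 and 2076 reads in peaks of 3.4 and 2.8 kb (log2 ratio 0.26, interval 0.16 to 0.35). These ratios were above those of 93.7% and 95.4% of genes. The KO peaks were the narrower ones, and the log2 ratios of summed scaled reads were 0.02 and -0.02. Tgfb3 had 4057 and 5738 reads, in peaks of 4.4 kb in sg-Ctrl and 8.6 kb in KO cells that were also paired with Ift43. The sg-Ctrl peak was the denser of 2 TSS peaks, whereas KO cells had 1. The Tgfb3 log2 ratio per kb was -0.81, and the log2 ratio of scaled reads summed over all its TSS peaks was -0.31.

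Of the TGF-beta receptor genes, Tgfbr3 had the largest rise of all 27 genes. Tgfbr3 encodes betaglycan, a coreceptor that presents TGF-beta to the signaling receptors. Its peak (chr5:107288601-107289800 in sg-Ctrl, 1.2 kb; 1.6 kb in KO) contained 60 sg-Ctrl reads and 364 KO reads, with 6 IgG reads in both. Scaled reads per kb were 47.1 and 169, so the gene went from the lowest 0.45% to the 10.8th percentile of genes and stayed under the median. The log2 ratio was 1.84 (interval 1.44 to 2.26), 3.58-fold higher, on a chromosome whose median was -0.72. Tgfbr1, the type I receptor kinase, had 1770 and 1619 reads (log2 ratio -0.76, interval -0.86 to -0.67). Tgfbr2, the type II receptor kinase, had 3531 and 4007 reads (log2 ratio -0.10, interval -0.17 to -0.04). Relative to the all-gene median these were -0.26 and 0.40. On chromosome 4, where Tgfbr1 lies, the median was -0.72, and relative to it Tgfbr1 was at -0.04. Relative to the median of chromosome 9, Tgfbr2 was at 0.34.

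The Smad genes were lower or near 0. Smad4, the common partner of all receptor-regulated Smads, had 4430 reads in sg-Ctrl and 2238 in KO cells (chr18:73700401-73705400 and chr18:73700401-73705800, IgG 55 reads in both). Scaled reads per kb fell by 1.44 on the log2 scale (interval -1.52 to -1.37), from 835 to 308, or 2.72-fold. Relative to the all-gene median the difference was -0.94, and relative to the median of chromosome 18 it was -0.72. Smad2 and Smad7, which lie on the same chromosome, had log2 ratios of -0.83 and -0.79, close to the chromosome's median of -0.72. Smad7, an inhibitory Smad, had the widest TSS peak of the 27 genes, 19.6 kb in sg-Ctrl (chr18:75362401-75382000, 10802 reads) and 17.2 kb in KO cells (6963 reads), wider than 99.8% and 99.6% of TSS peaks. Among the BMP-responsive Smads, Smad5 was at -0.75 and Smad1 at -0.55. In Smad1 the peak widened from 3.2 to 6.2 kb, and its summed scaled reads had a log2 ratio of 0.40, opposite in sign to the ratio per kb. Smad3, which with Smad2 transduces TGF-beta and activin signals, was at -0.29, with -0.73 for summed scaled reads and 1.08, at least 2-fold higher, by the deposited fold over IgG (63 and 18 IgG reads). The inhibitory Smad6 was at 0.08 (interval -0.04 to 0.21).

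The BMP and GDF genes with H3K4me3 were Bmp1, Bmp7, Gdf9, Gdf11 and Gdf15. Bmp1, a metalloprotease that processes procollagen and releases BMPs from the antagonist chordin and is not itself a member of the ligand family, had 3459 and 2140 reads. Its log2 ratio of -0.99 (interval -1.07 to -0.91) lay just inside the 2-fold limit, next to Fgf21 beyond it, and its peak was shared with Sftpc. With summed scaled reads (-1.04) or with IgG reads subtracted (-1.01) it was past the limit. Bmp7 had 1291 reads in sg-Ctrl and 2881 in KO cells, in a peak that covered the start (chr2:172937601-172941600 in sg-Ctrl). Its log2 ratio of 0.49 (interval 0.40 to 0.59) exceeded that of 97.7% of genes. Gdf9 (-0.82) shared its peak with Uqcrq and had a start 1286 bp away from it in sg-Ctrl, so its reads cannot be assigned to Gdf9 alone. Gdf11 and Gdf15 were at -0.42 and -0.20. Gdf2 had a peak of 42 reads in sg-Ctrl alone, 1762 bp from its start.

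Of the FGF ligand genes, the lowest ratios came from weak peaks away from the start. Fgf7, the keratinocyte growth factor of mesenchymal cells, had 356 reads in sg-Ctrl and 204 in KO cells against 110 IgG reads in both, 3.05 and 1.38-fold over IgG, in peaks 1458 and 1258 bp from the start. Its log2 ratio was -1.26 (interval -1.52 to -1.01). Fgf21, a metabolic hormone made mainly in liver, had 256 and 116 reads in peaks 1310 and 1710 bp from its start (chr7:45616801-45618600 in sg-Ctrl) that were also paired with Fut1 and Izumo1, with a log2 ratio of -1.12 (interval -1.45 to -0.80). Neither gene had a peak over its start in either line. Fgf15, the mouse counterpart of human FGF19, had 51 and 112 reads and no IgG reads, 132 bp from its start, with a log2 ratio of 0.53 (interval 0.04 to 1.03). Fgf9 had 219 reads in sg-Ctrl and 365 in KO cells in peaks of 1.8 and 2.8 kb over its start (log2 ratio -0.25, interval -0.49 to 0.00). The sign for Fgf9 turned with summed scaled reads (0.39), and the deposited fold over IgG, with 0 and 5 IgG reads, gave -3.93. Fgf11 was at -0.08 in a peak shared with Tmem102 and G630025P09Rik. Fgf18 had a peak in KO cells alone, of 109 reads against 28 IgG reads (2.89-fold over IgG). A peak in 1 list alone was found in KO cells for 1.89% and in sg-Ctrl cells for 2.02% of the genes with H3K4me3 in either list.

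Fgfr2 and Fgfr3, the FGF receptor tyrosine kinase genes that were named in a list, rose in reads per kb but stayed below the median gene. Fgfr3 had 177 and 356 reads with no IgG reads in either peak (chr5:33721201-33722800 in sg-Ctrl), 104 and 147 scaled reads per kb, and a log2 ratio of 0.49 (interval 0.23 to 0.76). Fgfr2 had 228 and 443 reads, 215 and 274 scaled reads per kb, and a log2 ratio of 0.35 (interval 0.12 to 0.59). Its peak lay 209 bp from the start in sg-Ctrl and covered it in KO cells. By the deposited fold over IgG Fgfr2 was over 2-fold lower, with 0 IgG reads in sg-Ctrl and 15 in KO cells.

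**Figure D3:**
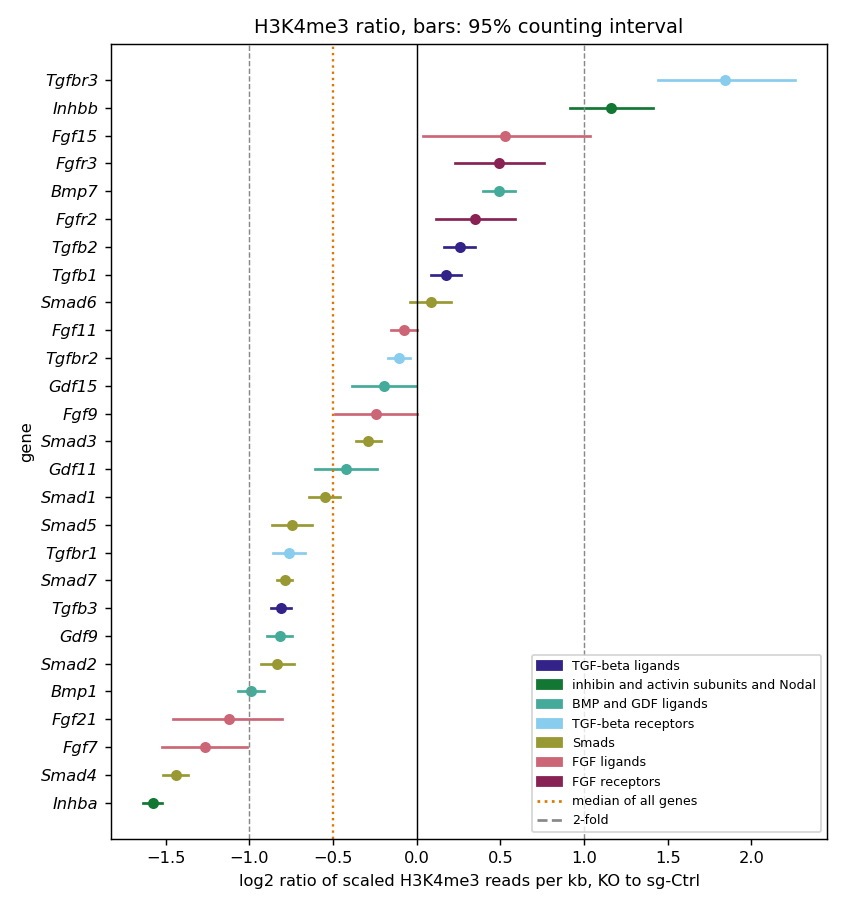
Log2 ratio of scaled H3K4me3 reads per kb of TSS peak, KO to sg-Ctrl (x axis), for 27 genes (y axis, coloured by role), with 95% counting intervals as bars, the all-gene median of -0.50 as a dotted line and 2-fold limits as dashed lines. Inhba and Smad4 lie lowest and Tgfbr3 and Inhbb highest, and the interval spans 0 for 3 genes.

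Counting intervals lay below 0 for 16 of the 27 genes and above 0 for 8. Over all genes, 88.7% of the ratios were below 0, and their intervals were not counted. When the count was restricted to the 18 genes whose peaks covered the start in both lists and were paired with no other gene, an alternative chosen after the data were seen, Inhba and Smad4 were at least 2-fold lower (9.83% of 7531 genes) and Tgfbr3 and Inhbb at least 2-fold higher (0.505%).

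H3K27me3 was examined over gene bodies, as the summed width of all peaks that met the gene. Of the 13 genes with the mark, 10 had it in both lines, Bmp15 and Inhbc in sg-Ctrl alone (12.6% of all genes with the mark in either list) and Bmp2 in KO cells alone (15.1%). In KO cells the width was at least 2-fold narrower for 3 of the 10 genes (8.67% of all genes), all of them BMP ligands, and at least 2-fold wider for 1, Fgf12 (22.3% of all genes). The median log2 width ratio of the 10 genes was 0.03, against 0.16 over all 4234 genes with the mark in both lists. The widths of these 10 genes added up to 417 kb in sg-Ctrl and 504 kb in KO cells, and without Fgf12 to 363 and 304 kb, so the direction of the total rested on Fgf12. The KO library was the deeper one, as given above, and the part of depth in these widths was not tested.

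**Figure D4:**
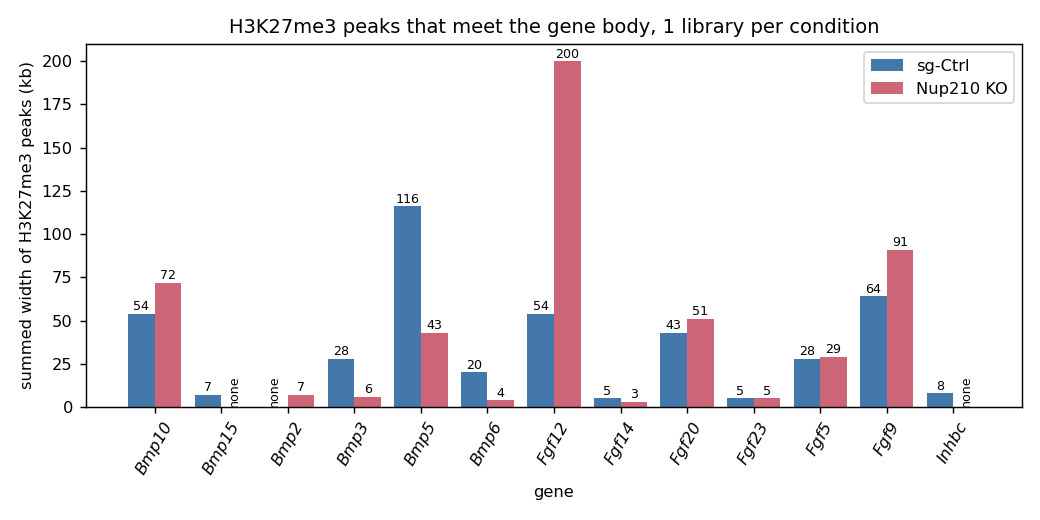
Summed width in kb of the H3K27me3 peaks that met each gene body (y axis) for 13 genes (x axis) in sg-Ctrl and Nup210 KO cells, 1 library each and therefore without error bars. Bmp3, Bmp5 and Bmp6 were narrower in KO cells, Fgf12 was wider, and "none" marks a gene with no peak in that list.

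Among the BMP ligands, Bmp3, Bmp5 and Bmp6 lost most of their H3K27me3 width. Bmp3, an atypical BMP that opposes osteogenic BMPs, was covered over 28 kb in sg-Ctrl (chr5:98857001-98885000, 873 reads, 3.57-fold over IgG) and 6 kb in KO cells (chr5:98857001-98863000, 445 reads, 2.38-fold). Both peaks began at the same position inside the gene, so the loss was toward the 3′ end. Bmp5, a ligand of skeletal development, had 5 peaks of 116 kb in sg-Ctrl and 4 peaks of 43 kb in KO cells. Its highest fold over IgG was 2.81 in sg-Ctrl and 1.63 in KO cells, and the peak over its start narrowed from 44 kb to 13 kb. Scaled reads per kb of its own peaks differed by -0.55 on the log2 scale (interval -0.62 to -0.48). Bmp6, which regulates iron metabolism through hepcidin, had 20 kb in 2 peaks in sg-Ctrl and 4 kb in 1 peak in KO cells. These lay 118 to 150 kb from the start of a 154 kb gene, far from its promoter. The smaller sg-Ctrl peak (3 kb, 127 reads against 15 IgG reads) had no counterpart in the KO list.

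Bmp10, a cardiac ligand, did not follow these 3. It lay under single peaks of 54 kb in sg-Ctrl (chr6:87411001-87465000, 1402 reads) and 72 kb in KO cells (chr6:87409001-87481000, 5271 reads), 3.03 and 2.93-fold over IgG. The whole 5.51 kb gene, including the CG-poor promoter printed above, was inside both peaks. Bmp2, an osteogenic ligand, gained a 7 kb peak in KO cells at only 1.62-fold over IgG. Bmp15, an oocyte factor, had a 7 kb peak (207 reads, 2.81-fold) and Inhbc, a liver-expressed subunit, an 8 kb peak over its start (178 reads, 3.75-fold), both in sg-Ctrl cells alone.

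Of the FGF ligands, Fgf12, which encodes an intracellular FGF that binds sodium channels, had the largest gain in width. It had 5 peaks of 54 kb in sg-Ctrl and 15 peaks of 200 kb in KO cells, spread over a 595 kb gene. Folds over IgG were 1.08 to 1.60 in sg-Ctrl and 0.65 to 2.53 in KO cells, and 2 of the KO peaks held fewer scaled reads than IgG. At the peak with the same boundaries in both lists (chr16:28426001-28442000, 16 kb), 305 and 1058 reads gave a log2 ratio of 0.13 (interval -0.05 to 0.32), and over all its peaks scaled reads per kb differed by -0.02. The 5 KO peaks that met a sg-Ctrl peak spanned 97 kb, against 54 kb in sg-Ctrl, and the 10 others spanned 103 kb. Density within called peaks depends on where peaks were called, and the part of depth was not tested. With only peaks at least 2-fold over IgG, Fgf12 was no longer among the genes with the mark in both lists. Of the 7 that remained, 0 were at least 2-fold wider (22.1% of all genes).

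Fgf20, Fgf23, Fgf5 and Fgf9 had the strongest H3K27me3 enrichment of the FGF genes. Fgf20, a ligand of inner ear and kidney development, had the densest signal of all 13, with 98.7 and 95.7 scaled reads per kb in peaks of 43 and 51 kb (3595 and 13066 reads, 5.54 and 5.56-fold). The density did not differ beyond counting error (log2 ratio -0.04, interval -0.10 to 0.01). Fgf23, the phosphate-regulating hormone of bone, had one 5 kb peak with the same boundaries in both lists (chr6:127074001-127079000). It held 138 and 436 reads with 4 IgG reads in both, 40.7-fold in each, and its log2 ratio was 0.00 (interval -0.28 to 0.29). Fgf5, a regulator of hair growth, had nearly equal widths of 28 and 29 kb, but scaled reads per kb fell by 0.68 on the log2 scale (interval -0.77 to -0.60), from 69.8 to 43.5. The median of this log2 density ratio was -0.27 on chromosome 5, where Fgf5 lies, and -0.13 over all genes. Fgf14 had peaks of 5 and 3 kb at 0.96 and 0.93-fold over IgG, which is no enrichment.

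Fgf9 carried H3K4me3 over its start within an H3K27me3 peak in both lines. The H3K27me3 peak ran from chr14:58060001-58124000 in sg-Ctrl (64 kb, 2123 reads) and chr14:58060001-58151000 in KO cells (91 kb, 7471 reads), 3.63 and 2.75-fold over IgG. It covered the whole gene in both. It grew at the 3′ side, while scaled reads per kb differed by -0.35 on the log2 scale (interval -0.42 to -0.28). Over the 10 genes the median of this log2 density ratio was -0.10, against -0.13 over all genes. With the scaled reads of each list's own peaks summed and not divided by width, these medians were -0.32 and 0.13. This measure includes the change in width, and the genes and the background then had opposite signs.

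**Figure D5:**
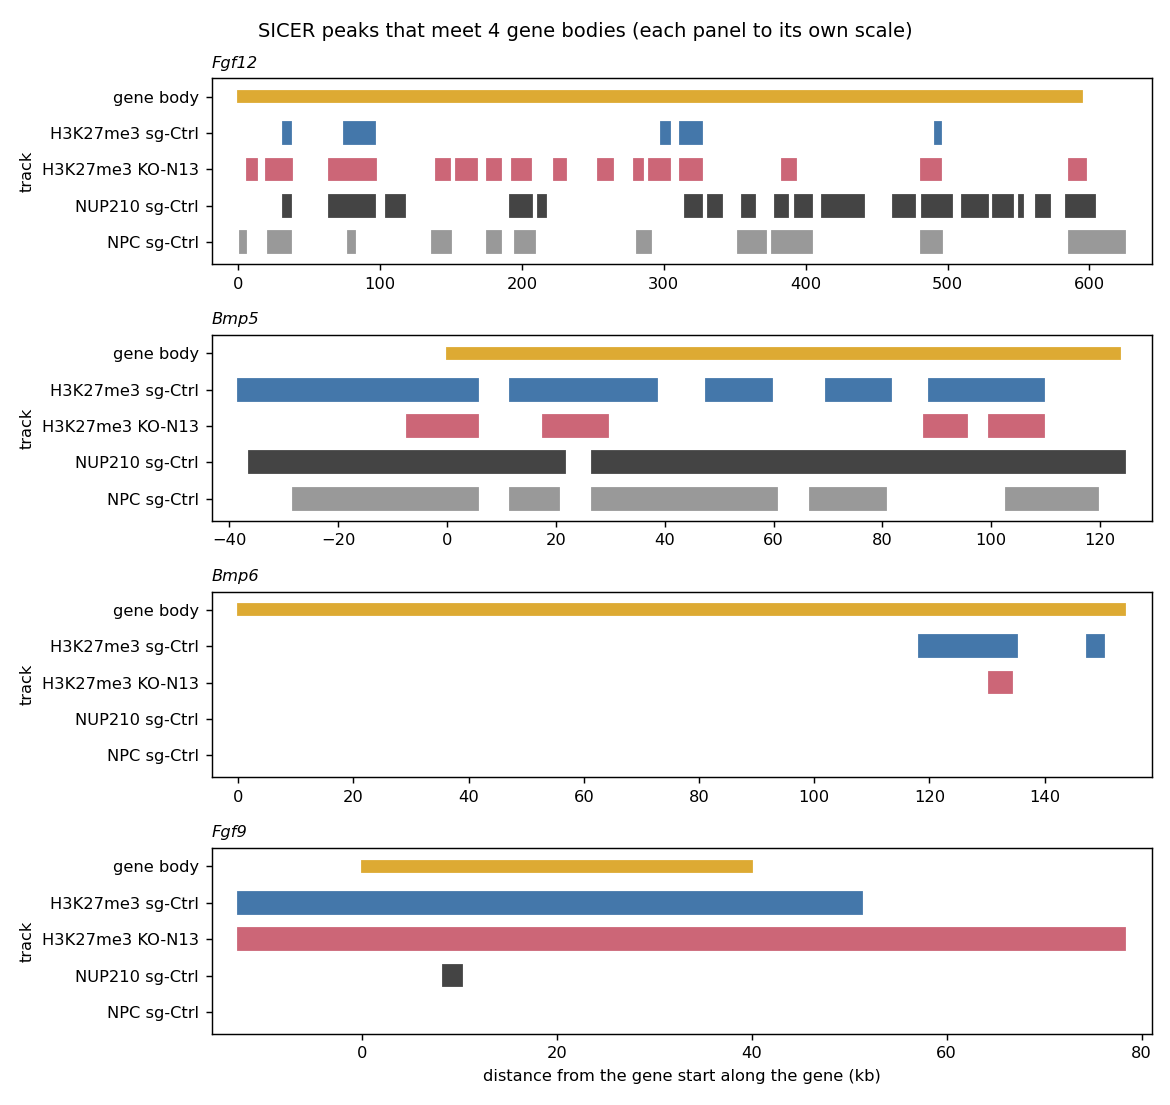
Peaks that met 4 gene bodies, drawn as boxes along the gene (x axis, kb from the gene start in the direction of transcription, each panel to its own scale) in 4 tracks, with the gene body above. Fgf12 gained H3K27me3 boxes in KO cells, Bmp5 lost width, Bmp6 peaks lay in the 3′ part of the gene, and the Fgf9 box covered the whole gene in both lines.

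NUP210 and NPC peaks were listed for 10 genes each (33.9% and 30.8% of all genes), and 8 genes had both: Bmp5, Fgf7, Fgf10, Fgf12, Fgf14, Fgf20, Smad4 and Tgfbr1. Fgf5 and Fgf9 had NUP210 alone, and Gdf11 and Tgfb2 had NPC alone. The NPC peak of Gdf11 was at 0.98-fold over IgG, which is no enrichment, and that of Tgfb2 at 1.28-fold. No NPC peak of Bmp5 (up to 1.13-fold) or Tgfbr1 (1.07-fold) had an FDR of at most 0.05. Every other gene with NPC except Gdf11 had such a peak. Genes counted as FGF ligands, Fgf12 and Fgf14 among them, made up 7 of the 10 NUP210 genes. These 10 genes had a median length of 63.2 kb, against 37.2 kb for all genes with a NUP210 peak. The median fold over IgG of the 59 NUP210 peaks was 1.29 (1.19 over all NUP210 peaks), and 50 of them (84.7%, against 69.0% of all NUP210 peaks) had an FDR of at most 0.05. Fgf14 held 26 of the 59 peaks and Fgf12 held 18, with 22 and 15 of the 50. The 43 NPC peaks had a median fold of 1.10 (1.10 over all NPC peaks), with 20 (46.5%, against 51.7% of all NPC peaks) at an FDR of at most 0.05 and 10 holding fewer scaled reads than IgG. Fgf14 held 18 of the NPC peaks and Fgf12 held 11, so the values of both lists describe mainly these long genes.

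The peaks with the highest folds lay inside FGF genes. For NUP210, a 10 kb peak 501 to 511 kb from the start of Fgf14 (chr14:124166001-124176000) had 317 reads against 146 IgG reads, 2.15-fold, the only one past 2-fold. Fgf14, a relative of Fgf12 that also binds sodium channels, had 26 NUP210 peaks over a 699 kb gene. For NPC, a 4 kb peak 1.24 to 5.24 kb from the start of Fgf12 (chr16:28748001-28752000) had 125 reads against 55, 3.75-fold. A 3 kb NPC peak in Fgf10 (chr13:118782001-118785000), a mesenchymal ligand required for limb, lung and mammary bud formation, had 96 against 57, 2.78-fold. Fgf10 had 4 NUP210 peaks, with a highest fold of 1.69, and neither histone mark. The highest NUP210 folds of Fgf12 and Fgf9 were 1.78 and 1.72. The NUP210 peak of Smad4 was at 0.96-fold and those of Tgfbr1 at up to 1.53-fold.

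NUP210 peaks overlapped an H3K27me3 peak in sg-Ctrl cells at 6 genes, Bmp5, Fgf5, Fgf9, Fgf12, Fgf14 and Fgf20. These were 60% of the genes with NUP210, against 37.9% of all genes in the NUP210 list. Counted by pairs of gene and peak, 11 of the 59 overlapped (18.6%, against 35.5% of all 14563 pairs in the NUP210 list). Most of the 59 pairs lay in Fgf14 and Fgf12, so the share by gene and the share by pair went opposite ways. The H3K27me3 peak of Fgf14 held fewer scaled reads than IgG. NPC peaks were met in 35 of the 59 pairs (59.3%, against 71.3% of all pairs) and at 80% of the genes (77.4% of all genes in the NUP210 list). These shares were not tested. Of the 3 genes whose H3K27me3 narrowed at least 2-fold, Bmp5 had NUP210 and Bmp3 and Bmp6 did not, and Fgf12, which widened, had NUP210. These are counts of 1 to 3 genes and were not tested.

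The other genes of these pathways were counted in the same way. Of 14 further receptors and coreceptors, 8 had H3K4me3 in both lists, and 2 were at least 2-fold lower in KO cells (9.66% of all genes). These were the BMP receptors Bmpr1a (6362 and 3916 reads, log2 ratio -1.15) and Bmpr2 (8650 and 6342 reads, -1.06, and -0.79 for summed scaled reads). Relative to the all-gene median they were at -0.65 and -0.56, inside the 2-fold limit. Of 25 secreted or membrane antagonists and binding proteins, 13 had it in both. The activin-binding Fstl3 (685 and 452 reads, -1.88) and the Nodal antagonist Lefty1 (50 and 68 reads, -1.71) were at least 2-fold lower per kb (9.66% of all genes). Their peaks widened from 2.2 to 4.2 kb and from 0.4 to 1.4 kb. Their summed scaled reads had log2 ratios of -0.94 and 0.10, so that for Lefty1 the direction turned. The FGF carrier protein Fgfbp3 (1313 and 7172 reads, 1.15) was at least 2-fold higher (0.525% of all genes). Relative to the all-gene median, Fstl3, Lefty1 and Fgfbp3 were at -1.38, -1.21 and 1.65. Of 27 intracellular regulators and feedback genes, 26 had it in both. Those at least 2-fold lower (9.66% of all genes) included the Smad corepressor Ski (1718 and 940 reads, -1.61), the ubiquitin ligase Smurf1 (2067 and 871 reads, -1.19) and the BMP target Id3 (2702 and 1572 reads, -1.08). Relative to the all-gene median, Ski, Smurf1 and Id3 were at -1.11, -0.69 and -0.58. Genes of these 3 lists were not set against the median of their own chromosome. Chromosome medians went as low as -0.72, on chromosome 5. The median log2 ratios of the 3 lists were -0.47, -0.34 and -0.41, against -0.50 over all genes.

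H3K27me3 was listed in sg-Ctrl and KO cells for 3 and 3 of the further receptors, for 7 and 6 of the antagonists and for 1 and 0 of the intracellular genes. Of these 3 lists, 12, 22 and 26 genes were named in any peak list. Over all genes named in any list, the shares with H3K27me3 were 26.8% in sg-Ctrl and 27.6% in KO cells. The intracellular gene was Id4. The BMP-binding protein Bmper narrowed from 74 to 10 kb, and the type I receptor Acvr1c widened from 88 to 142 kb.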

How the data were processed

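The 6 peak lists came from ChIP-seq of 4T1 cells, 1 library per list. The authors ran SICER with IgG as control (window 200 bp for H3K4me3, 1000 bp for broad targets) and paired peaks with genes, over the gene body or, for H3K4me3, within 4 kb of the TSS. The aligner and genome build of these lists are not given in the sources used here. Of 9301 genes matched by name, 88.8% had a listed start or end no more than 50 bp from that of GRCm38.p6. Per peak, the authors deposited ChIP and IgG read counts without normalization, p-values, FDR values and a ratio to IgG (fold) corrected for library size, in which 0.25 reads stand for no IgG reads. The 4 RNA-seq samples were not used here, and the 3 IgG samples entered only through the lists.

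Library sizes relative to IgG were recovered from counts and folds: H3K27me3 sg-Ctrl 0.847, H3K27me3 KO 2.68, H3K4me3 sg-Ctrl 1.06, H3K4me3 KO 1.35, NUP210 1.01 and NPC 0.606. IgG reads were identical at all peaks whose boundaries matched between the lines (832 for H3K27me3, 575 for H3K4me3), so each mark is on one scale. For H3K4me3 the TSS peak with the most reads per kb was taken. A gene was called past 2-fold, overlap required 1 bp, and intervals are 95% exact Poisson or conditional binomial. Values were given by rule for each receptor, Smad and TGF-beta ligand, and for other ligands past 2-fold or at the extremes for H3K4me3, with a mark in 1 line alone, among the 3 widest or most changed H3K27me3 domains, or with a NUP210 or NPC fold of at least 1.5. Members, pathway and marker lists and this rule were chosen with earlier results of these data known. The remaining ligands, and the genes of the other pathway lists that are named, were chosen after their values were seen. A gene of these lists is not reported here. Alternatives were other scalings, peak choices, FDR and fold limits and gene body coverage. The steps were tested on simulated data. Software: scipy 1.17.1, pandas 2.3.3, numpy 2.4.6 and, for plots, matplotlib 3.10.9, under Python 3.11.15.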

Additional observations from a re-analysis of the deposited data

How the results depend on the processing

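Of 63 alternative values for 17 results, 41 stayed within 1.5 times the reported value, 20 moved further and 2 changed sign. The count of genes with at least 2-fold lower H3K4me3 was 2 with scaling by the reads in peaks of genes in both lists (1.27% of all genes). It was 1 when centred on the all-gene median (0.926%) and 10 with the deposited fold over IgG (17.5%). With start-covering peaks of a single gene it was 2 (9.83%), and this setting and the subtraction of IgG reads were chosen after the data were seen. The members' median log2 ratio turned to 0.13 with the first scaling and to 0.21 when centred, by construction, since both shift every gene upward, and was -0.10 with summed reads and -0.57 with the deposited fold. The median log2 H3K27me3 width ratio was 0.051 with an FDR of at most 0.01, 0.051 with a fold of at least 2 and 0 inside the gene body. The median log2 density ratio was -0.16 with either limit and -0.24 with scaling by shared peaks. With summed reads not divided by width it was -0.32, against 0.13 over all genes. Requiring coverage of at least 50% of the gene body left 7 (sg-Ctrl) and 6 (KO) genes with H3K27me3 (16% and 18.3% of all genes). It left 6 with NUP210 (19.7%) and 5 with NPC (17.6%). Requiring a fold of at least 2 left 1 with NUP210 (2.14%) and 2 with NPC (0.399%), since fewer peaks remain. It left 0 of 7 genes with at least 2-fold wider H3K27me3 (22.1%). No paired analysis was possible because each ChIP condition has 1 library and RNA-seq was not analysed here. With 1 library per condition, the spread between cultures is unknown and read counts limit the precision within a library only.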
